A study of Mus musculus with 8 samples.

Results

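Peroxisomes are small organelles bounded by one membrane that shorten very long, branched and dicarboxylic fatty acids and bile acid precursors by beta-oxidation, shorten phytanic acid by alpha-oxidation, and begin the synthesis of ether lipids. Acyl-CoA oxidases pass electrons to oxygen, and catalase removes the hydrogen peroxide that results. The matrix enzymes are made in the cytosol and imported by peroxins, the products of the Pex genes, which also insert membrane proteins and drive division of the organelle. In rodent liver many of the oxidation enzymes are classical targets of PPARα, a nuclear receptor for fatty acids that works with RXR on direct repeats of the AGGTCA hexamer. NCOR, a corepressor, is recruited by such receptors to silence their targets.

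The genes described here are 39 named genes of peroxisomal oxidation, ABCD transport, ether lipid synthesis and peroxisome biogenesis, out of 22180 genes with a row of their own on the array. They were chosen by name, and each was read from its brightest row annotated to that gene alone. Rows existed for all 39, with 1 row for 37 of them and 2 rows for Phyh and Aldh3a2, and no gene was removed by a filter on low values. The list holds 15 oxidation enzymes, 3 ABCD transporters, 13 peroxins, 3 ether lipid enzymes, and 5 genes for catalase, a protease and membrane proteins.

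RNA came from whole livers of 8 mice aged 3 months, kept on normal chow under a regular light cycle and measured on one-colour Affymetrix Mouse Gene 2.0 arrays. The NCOR_KO group, 4 mice, had received adeno-associated virus (AAV) carrying Cre recombinase through a vein, and the WT group, 4 mice, had received AAV carrying GFP. The study's design text gives NCOR floxed mice to both viruses, while the labels call the GFP mice wild-type and it is unclear from these sources whether the GFP mice were floxed too. Livers were taken 2 weeks after injection at 5 pm, ZT10 on the light schedule. The promoter that drives Cre is not given in the sources used here, and the virus cargo differs exactly with the group, so effects of Cre itself and of NCOR loss cannot be told apart. The level of Ncor1 was not analysed here, and the group labels therefore rest on the submitters' word. Titles call the replicates biological without naming animals, and every p-value rests on the spread among these arrays alone.

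The arrays were similarly bright, with medians from 41.0 to 44.1, and arrays correlated across genes at 0.992 to 0.997. The tissue label held against hepatocyte markers, which were bright and differed little: the 9 measured ones, among them Alb, Ttr and Hnf4a, had a median log2 difference of 0.01, and 0 of 9 changed, at summed intensities of 77985 to 79675 in WT and 76801 to 78707 in NCOR_KO arrays. Markers of other cells did move with the group. All 9 endothelial markers had positive differences, with a median of 0.23, and their summed intensity ran from 6180 to 7436 in WT and from 7274 to 8505 in NCOR_KO arrays, with 1 riser (Robo4). The 5 cholangiocyte markers, with Krt7 and Muc1 below the median gene level, had a median difference of 0.24, and their summed intensity ran from 341.4 to 353.8 in WT and from 394.8 to 462.6 in NCOR_KO arrays, with 1 riser (Epcam). The 5 lymphocyte markers had a median difference of 0.18 and 2 risers, Cd3e and Cd79a. Both of these, and Cd8a, were below the median gene level, and the summed intensity of that list ran from 319.5 to 368.0 and from 352.0 to 414.4. Macrophage and stellate cell lists had 0 of 7 risers each, at sums of 1784 to 3472 against 2222.5 to 3811 and of 1904.5 to 2247 against 1861 to 2118. All 4 adipocyte markers were below the median gene level, at sums of 106.1 to 122.4 in WT and 117.2 to 122.7 in NCOR_KO arrays. A change in the number of cells of a type and a change in RNA per cell cannot be told apart in whole liver. The part of these cells in the results below was not tested.

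In NCOR_KO liver 3 of the 39 genes rose, namely Ehhadh and Acaa1b, a hydratase-dehydrogenase and a thiolase that act in sequence in beta-oxidation, and Abcd3, the main ABCD transporter of liver peroxisomes. None of the 39 fell, and 36 did not pass. The test was limma on log2 intensity with p-values adjusted by Benjamini-Hochberg over all 22180 genes and a threshold of 0.05. Of all genes 1.65% changed, 0.816% upward and 0.834% downward, against 7.69% of the 39, which were picked with earlier results of these data known. All 39 lay at or above the median level of all genes. The 4 NCOR_KO values lay all on one side of the 4 WT values in 15.4% of genes at or above that level and 10.4% of all genes. A separate fit on the 11090 genes at or above that level, with p-values adjusted over those alone, called 551 (4.97%, with 2.14% higher). In that fit 4 of the 39 rose, Pxmp4 being the addition. Its share comes from another set of tests than the 1.65%. The count of 3 became 2 with arrays centred on their medians and without each array in turn other than WT replicate 2 (3), and 1 with the replicate block. Without WT replicate 2 and NCOR_KO replicate 1 together, which carried the lowest weights when arrays were weighted by quality (0.54 and 0.81), it was 3, a setting chosen after seeing the data.

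**Figure D1:**
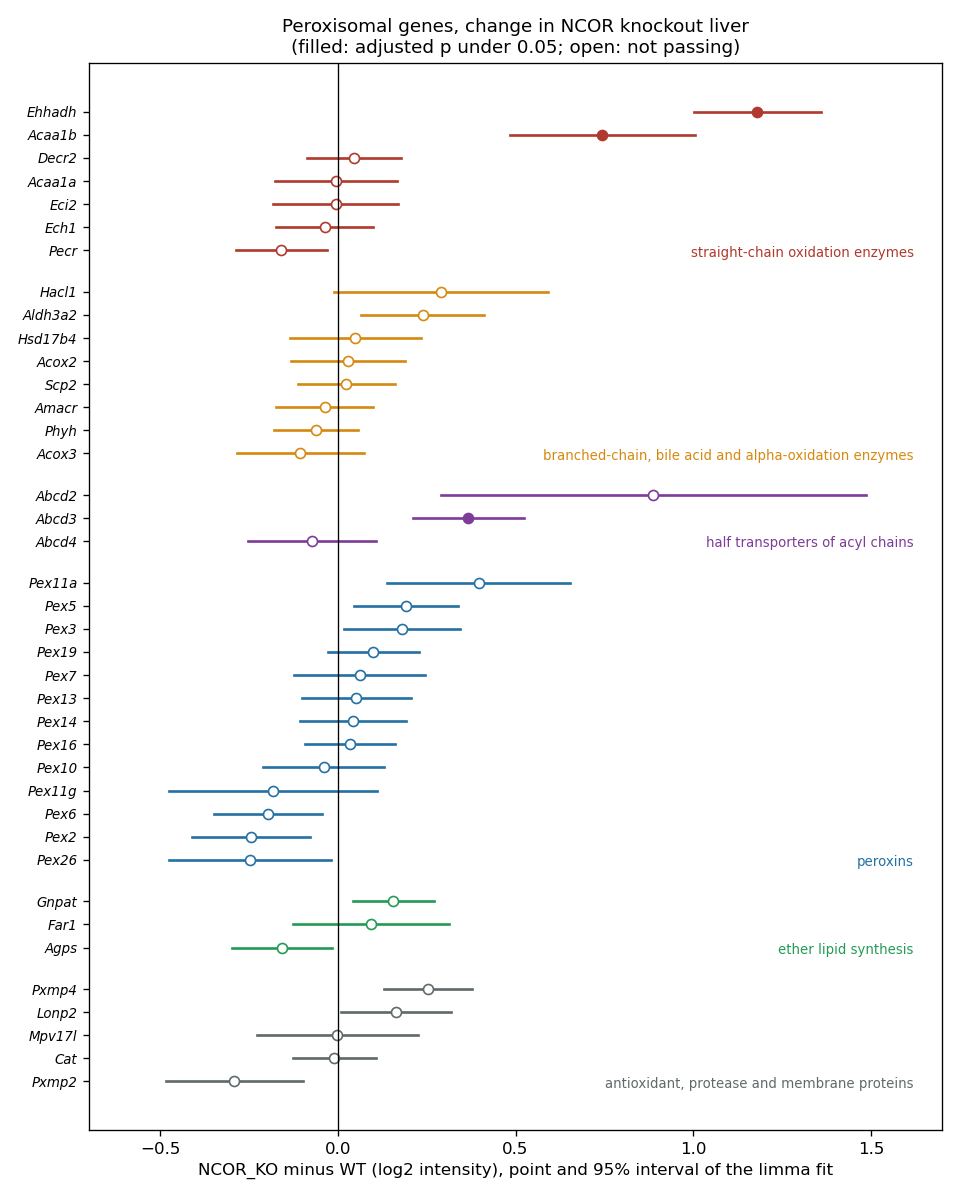
Log2 difference between NCOR_KO and WT liver (x axis, log2 intensity) for each of the 39 genes (y axis), grouped by role, with the 95% interval of the limma fit over 4 arrays per group. Filled points are the 3 genes that rose (Ehhadh 1.18, Acaa1b 0.74, Abcd3 0.37), and open points are the 36 that did not pass, most of them within 0.3 of 0.

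Ehhadh encodes the L-bifunctional enzyme, which performs the hydration and dehydrogenation steps of the inducible straight-chain pathway. Its log2 intensity was 11.11, 11.35, 11.24 and 11.06 in WT replicates 1 to 4 and 12.51, 12.37, 12.29 and 12.31 in NCOR_KO replicates 1 to 4. The groups lay far apart, and the spread within each was small beside the distance between them. The difference was 1.18 ± 0.08 (SE), or 2.27-fold, with a limma adjusted p of 8.88e-05. Over 15 alternative fits it stayed between 1.13 and 1.23, and the adjusted p was at most 0.0035.

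Acaa1b encodes a peroxisomal 3-ketoacyl-CoA thiolase, which cleaves the shortened chain in the last step of the cycle. WT replicates 1 to 4 read 10.01, 10.57, 10.23 and 10.35, and NCOR_KO replicates 1 to 4 read 11.25, 10.90, 11.02 and 10.95. All knockout values were above all control values, with WT replicate 1 the lowest array and NCOR_KO replicate 1 the highest. The difference was 0.74 ± 0.12 (SE), or 1.68-fold, with a limma adjusted p of 0.0144. It passed in every fit except the one with the replicate number as a block, where the adjusted p was 0.0687.

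Acaa1a, the other thiolase gene, gave no such difference. Its control arrays read 8.57, 8.68, 8.42 and 8.51 and its knockout arrays 8.66, 8.46, 8.61 and 8.43, so the groups overlapped throughout. The difference was -0.00 ± 0.08 (SE; limma adjusted p = 0.985), with a 95% interval from -0.18 to 0.17. Both thiolase genes lie on chromosome 9 with 6 annotated genes between them. The array's probes could share signal between transcripts of such close paralogs, so the value of each is uncertain to that extent.

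The upstream sequences of the genes that rose, and of Acaa1a beside its paralog, are shown because these genes differ in response, and the search asked whether they hold the hexamer to which PPARα and related receptors bind. The RefSeq promoter table (GRCm38.p6, 250 bases before to 50 after the start site) held 31 of the 39 genes. The 250 bases before the start site are printed 5′ to 3′ on the strand of the gene, with matches to CCAAT on either strand (read as CCAAT or ATTGG) in capitals.
Ehhadh, chr16:21787835-21788084, minus strand: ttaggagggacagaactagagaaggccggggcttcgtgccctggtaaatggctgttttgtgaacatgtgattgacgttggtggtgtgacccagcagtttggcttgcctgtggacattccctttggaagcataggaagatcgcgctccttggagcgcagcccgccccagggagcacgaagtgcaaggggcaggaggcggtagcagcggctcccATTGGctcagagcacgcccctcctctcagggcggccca
Acaa1b, chr9:119157094-119157343, minus strand: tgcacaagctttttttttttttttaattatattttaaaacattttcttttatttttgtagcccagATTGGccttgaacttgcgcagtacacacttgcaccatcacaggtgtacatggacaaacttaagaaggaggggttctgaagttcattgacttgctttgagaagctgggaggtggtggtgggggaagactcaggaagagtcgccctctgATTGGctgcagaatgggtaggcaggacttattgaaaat
Acaa1a, chr9:119341044-119341293, plus strand: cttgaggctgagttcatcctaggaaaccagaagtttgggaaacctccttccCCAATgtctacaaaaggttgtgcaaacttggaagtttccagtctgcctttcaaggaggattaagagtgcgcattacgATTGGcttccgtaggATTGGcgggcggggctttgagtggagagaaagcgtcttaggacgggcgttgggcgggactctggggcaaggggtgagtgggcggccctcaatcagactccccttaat
Abcd3, chr3:121815303-121815552, minus strand: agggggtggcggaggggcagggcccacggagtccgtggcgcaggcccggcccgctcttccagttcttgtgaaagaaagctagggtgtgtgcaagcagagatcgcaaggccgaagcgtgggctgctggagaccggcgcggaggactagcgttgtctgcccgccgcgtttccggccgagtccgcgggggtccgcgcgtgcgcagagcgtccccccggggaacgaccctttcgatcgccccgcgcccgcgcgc
The stretches of the thiolase genes were 51.4% identical in a global alignment (148 identical bases in 288 columns), and they differed in base composition: Acaa1b held 41.6% G and C with 2 CG dinucleotides, and Acaa1a held 53.6% with 10. Ehhadh stood at 60.4% with 12, and Abcd3 at 72.0% with 34. CCAAT was matched 1 time in the Ehhadh stretch, 2 times in that of Acaa1b, 3 times in that of Acaa1a and 0 times in that of Abcd3. The motif was common, being found in the 300-base windows of 15 of 31 listed genes and of 41.1% of all 27025 genes in the table.

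None of the 4 printed stretches held AGGTCA on either strand. In the 300-base windows of the 31 genes the hexamer was found in 4, Cat, Scp2, Phyh and Pex11g (12.9%), against 18.1% of all genes in the table. The DR1 repeat, which is AGGTCA given again after 1 free base, was found on either strand in 0 of the 31 genes and in 0.0481% of all genes. With the T of each AGGTCA also left free, a form that includes every DR1 match, it was found in 0 of the 31 genes and in 0.451% of all genes. The stretches around the 4 matches follow, on the strand of the gene, with the hexamer (or its reverse complement TGACCT) in capitals.
Cat, chr2:103485342-103485367, minus strand, hexamer at -204 from the start site: tgactctcagAGGTCAgagaacacca
Scp2, chr4:108118641-108118666, minus strand, hexamer at -109 from the start site: ctaacacagtAGGTCAaaagaaccca
Pex11g, chr8:3467806-3467831, minus strand, hexamer at -173 from the start site: caggcttagaAGGTCAttctgggtgt
Phyh, chr2:4919022-4919045, plus strand, hexamer at 37 from the start site: aagttaagtgTGACCTgggcgcag
None of these 4 genes passed the test. A match is only a run of letters in this window, and the absence of one says nothing of sites elsewhere.

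The remaining straight-chain enzymes did not pass. Eci2 and Ech1, isomerases that move double bonds of unsaturated chains into place, differed by -0.01 ± 0.08 and -0.04 ± 0.06 (SE; limma adjusted p = 0.979 and 0.813). Decr2, a 2,4-dienoyl-CoA reductase, differed by 0.05 ± 0.06 (limma adjusted p = 0.749). Pecr, an enoyl-CoA reductase, read 10.96 to 11.003 in WT and 10.75 to 10.91 in NCOR_KO arrays. Its groups did not overlap, but the difference of -0.16 ± 0.06 (SE) missed the threshold (limma adjusted p = 0.212). Across the 7 straight-chain enzymes 2 rose, 0 fell and 5 did not pass, and the median difference was -0.00 beside 0.01 over all genes.

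The enzymes for branched chains, bile acid precursors and alpha-oxidation had 0 of 8 members past the threshold, and their median difference was 0.03. Hsd17b4, the D-bifunctional enzyme of the branched-chain and bile acid pathway, read 11.36, 11.51, 11.22 and 11.52 in WT and 11.59, 11.48, 11.36 and 11.38 in NCOR_KO replicates 1 to 4. These values overlapped, and the difference was 0.05 ± 0.08 (SE; limma adjusted p = 0.815). Acox2, the oxidase for bile acid intermediates, and Acox3, an oxidase for branched chains, differed by 0.03 ± 0.07 and -0.11 ± 0.08 (SE; limma adjusted p = 0.880 and 0.564). Scp2, sterol carrier protein with a thiolase isoform, and Amacr, the racemase that turns branched chains into the oxidisable form, differed by 0.02 and -0.04, with 95% intervals from -0.11 to 0.16 and from -0.17 to 0.10.

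In alpha-oxidation, Phyh hydroxylates phytanoyl-CoA, Hacl1 cleaves the product and Aldh3a2 oxidises the resulting aldehyde. Phyh was nearly level at -0.06 ± 0.05 (SE; limma adjusted p = 0.616), and its dimmer row gave -0.19 ± 0.12. Hacl1 read 11.37, 11.26, 11.79 and 11.46 in WT and 11.43, 11.74, 11.88 and 11.98 in NCOR_KO arrays, overlapping at a difference of 0.29 ± 0.14 (limma adjusted p = 0.331). Aldh3a2 separated the groups, at 11.09 to 11.20 in WT and 11.22 to 11.55 in NCOR_KO arrays. Its difference of 0.24 ± 0.08 (SE) nonetheless missed the threshold (limma adjusted p = 0.169), and its second row gave 0.20 ± 0.11. Hacl1 was also covered by 2 rows and Acox3 by 1 row shared with other genes, which were not used.

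ABCD proteins pair up to carry acyl-CoA across the peroxisomal membrane. Abcd3, also known as PMP70, carries branched and dicarboxylic chains and bile acid precursors. It read 11.66, 11.92, 11.70 and 11.85 in WT and 12.22, 12.15, 12.11 and 12.12 in NCOR_KO replicates 1 to 4, with no overlap and a narrow knockout group (SD 0.05, n = 4). The difference was 0.37 ± 0.07 (SE), or 1.29-fold, with a limma adjusted p of 0.0351, and this call was the least stable of the 3. It was lost with arrays centred on their medians (adjusted p = 0.0748), with the replicate block (0.0919) and without each array in turn other than WT replicate 2 (0.0651 to 0.103), while the difference kept between 0.32 and 0.41.

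Abcd2, which carries very long and polyunsaturated chains, had a larger difference and a wider spread. WT arrays read 7.14, 7.78, 8.51 and 7.70, and NCOR_KO arrays 9.28, 8.49, 8.34 and 8.58. WT replicate 3 lay inside the knockout range, and NCOR_KO replicate 1 lay well above it. The difference of 0.89 ± 0.27 (SE; limma adjusted p = 0.141) did not pass, and its 95% interval ran from 0.29 to 1.49. Abcd4, whose product is known to handle cobalamin in lysosomes, differed by -0.07 ± 0.08 (limma adjusted p = 0.702).

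**Figure D2:**
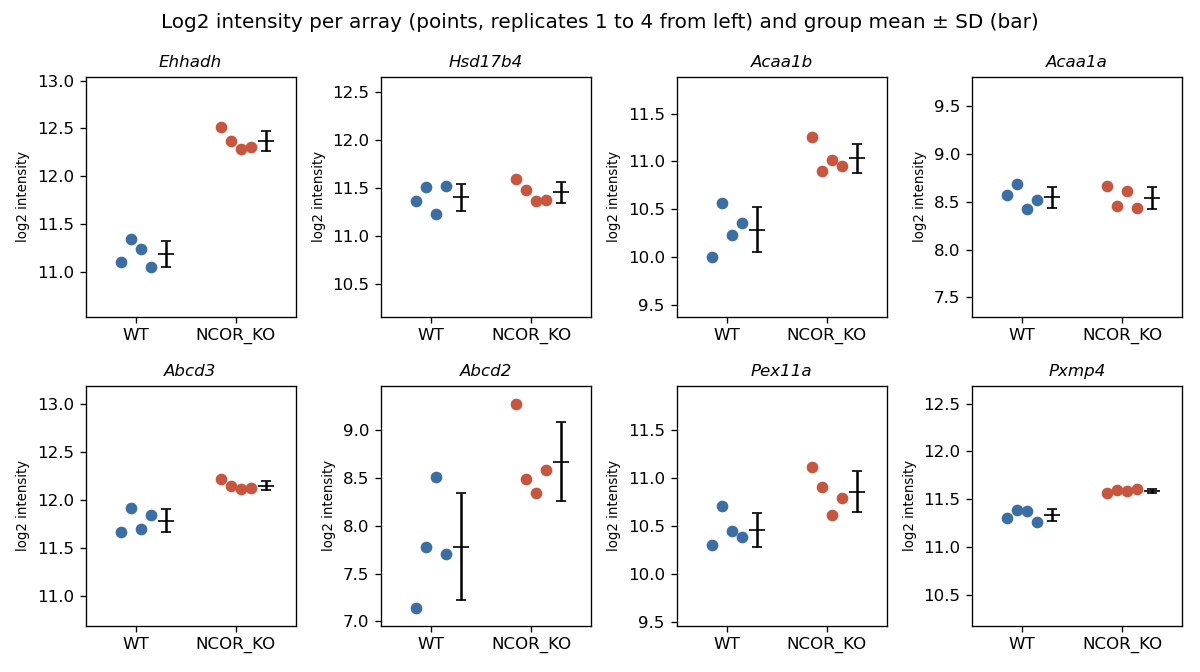
Log2 intensity (y axis, the same span of 2.5 log2 units in each panel) in the 4 WT and 4 NCOR_KO arrays for 8 genes, points in the order of replicates 1 to 4, with the group mean and SD (n = 4) beside them. Ehhadh, Acaa1b, Abcd3 and Pxmp4 show no overlap between groups, whereas Hsd17b4, Acaa1a, Abcd2 and Pex11a overlap.

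Genes of like function were also set against each other inside each array, which removes differences in overall brightness. The 7 pairs were chosen after values had been seen, so the differences between their changes describe those values and no test of them is reported. For pairs chosen this way the 95% intervals describe the spread among arrays and cannot be read as tests against 0. Ehhadh and Hsd17b4 encode unrelated proteins for the same steps, and the other pairs are members of one gene family. The change of Ehhadh exceeded that of Hsd17b4 by 1.13 ± 0.10 (SE; 95% interval 0.88 to 1.38), and the within-array difference ran from -0.47 to 0.02 in WT and from 0.89 to 0.93 in NCOR_KO arrays. The change of Acaa1b exceeded that of Acaa1a by 0.75 ± 0.11 (95% interval 0.48 to 1.02), and that of Abcd3 exceeded that of Abcd4 by 0.44 ± 0.09 (0.22 to 0.66).

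Intervals were wider where Abcd2 or Pex11a entered. The change of Abcd2 exceeded that of Abcd4 by 0.96 ± 0.32 (SE; 95% interval 0.18 to 1.74), with WT values up to 0.62 and NCOR_KO values of 0.69 and above. Abcd3 and Abcd2 differed in change by -0.52 ± 0.34 (95% interval -1.35 to 0.31), and Pex11a and Pex11g by 0.58 ± 0.27 (-0.08 to 1.23). Acox2 and Acox3 differed in change by 0.13 ± 0.10 (95% interval -0.11 to 0.38).

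**Figure D3:**
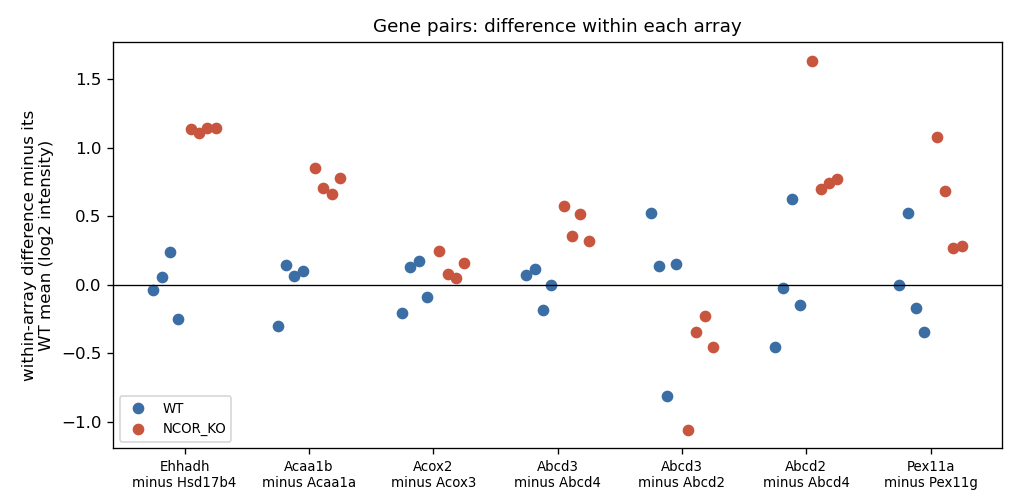
Difference in log2 intensity between the genes of a pair within each array, shown relative to its mean over the WT arrays (y axis), for the 7 pairs (x axis). The 4 NCOR_KO points lie above all WT points for Ehhadh minus Hsd17b4, Acaa1b minus Acaa1a, Abcd3 minus Abcd4 and Abcd2 minus Abcd4, and overlap them in the other pairs.

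No peroxin passed the test in either direction, so 0 of 13 rose and 0 of 13 fell, and their median difference was 0.04. At an unadjusted limma p under 0.05 there were 6 of 13, of which 3 were higher and 3 lower, where 15.9% of all genes and 22.5% of those at or above the median level reached it. Pex11a, which elongates and divides peroxisomes, had the largest difference among them. It read 10.30, 10.72, 10.45 and 10.39 in WT and 11.12, 10.91, 10.62 and 10.80 in NCOR_KO arrays. WT replicate 2 lay above NCOR_KO replicate 3, and the difference of 0.40 ± 0.12 (SE), with a 95% interval from 0.14 to 0.65, did not pass (limma adjusted p = 0.130, and 0.0706 to 0.267 over the alternatives). Pex11g, a paralog, differed by -0.18 ± 0.13 (adjusted p = 0.540).

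Among the import receptors, Pex5, which binds most matrix enzymes, read 8.83 to 8.90 in WT and 8.94 to 9.20 in NCOR_KO arrays, without overlap. The difference of 0.19 ± 0.07 (SE) did not pass (limma adjusted p = 0.194). Pex7, the receptor for thiolase, phytanoyl-CoA hydroxylase and Agps, differed by 0.06 ± 0.08 (adjusted p = 0.765). The docking peroxins Pex13 and Pex14 were close to level at 0.05 ± 0.07 and 0.04 ± 0.07.

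None of the 4 measured genes for recycling of the receptors passed. Pex2 and Pex10 are RING finger ubiquitin ligases, Pex6 is an ATPase that pulls the receptor out of the membrane, and Pex26 anchors it. Pex2 read 8.32, 8.40, 8.40 and 8.30 in WT and 7.94, 8.08, 8.17 and 8.26 in NCOR_KO arrays, with no overlap at a difference of -0.24 ± 0.07 (SE; limma adjusted p = 0.142). Pex6 and Pex26 differed by -0.20 ± 0.07 and -0.25 ± 0.10 (adjusted p = 0.199 and 0.273), and Pex10 by -0.04 ± 0.08 (0.844). The value of Pex10 turned to 0.02 without NCOR_KO replicate 1. The peroxins that insert membrane proteins did not pass: Pex3 differed by 0.18 ± 0.07 (adjusted p = 0.268), Pex19 by 0.10 ± 0.06 (0.4385) and Pex16 by 0.03 ± 0.06 (0.813). The value of Pex16 turned to -0.009 with arrays centred on their medians.

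Ether lipid synthesis begins in the peroxisome with Gnpat, which acylates dihydroxyacetone phosphate, and Agps, which exchanges the acyl for an alkyl chain that Far1 supplies as an alcohol. Gnpat read 8.83 to 8.89 in WT and 8.99 to 9.04 in NCOR_KO arrays, and Agps 7.21 to 7.39 and 7.04 to 7.20. Both separated the groups, in opposite directions, by 0.16 ± 0.05 and -0.16 ± 0.06 (SE; limma adjusted p = 0.174 and 0.264), and neither passed. Far1 differed by 0.09 ± 0.10 (adjusted p = 0.692).

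Cat, the catalase gene, was level, at 13.03 to 13.08 in WT and 13.02 to 13.10 in NCOR_KO arrays. Its difference was -0.01 ± 0.05 (SE; limma adjusted p = 0.948) and its 95% interval ran from -0.13 to 0.11. Lonp2, the matrix protease, differed by 0.16 ± 0.07 (adjusted p = 0.285) and Mpv17l, a membrane protein linked to reactive oxygen, by -0.00 ± 0.10.

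The membrane proteins Pxmp4 and Pxmp2 lay on opposite sides of 0. Pxmp4, whose function is not well established, read 11.31, 11.39, 11.37 and 11.26 in WT and 11.56, 11.60, 11.58 and 11.60 in NCOR_KO replicates 1 to 4. The groups were apart and tight, and the difference of 0.25 ± 0.06 (SE) just missed the threshold (limma adjusted p = 0.0543). It passed with quantile normalization, a variance trend, array weights or a filter on dim genes (adjusted p = 0.0469, 0.0116, 0.0374 and 0.0278). Pxmp2, a channel protein, read 8.99 to 9.33 in WT and 8.74 to 9.01 in NCOR_KO arrays, a difference of -0.29 ± 0.09 (adjusted p = 0.136).

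Oxidation enzymes and peroxins were set against each other. The median difference was 0.02 over the 15 enzymes and 0.04 over the 13 peroxins, so that the medians differed by -0.02, and the sign was positive with array weights and without WT replicate 2, WT replicate 4 or NCOR_KO replicate 4 (0.0001 to 0.0108). Without WT replicate 3 it was -0.06. The means were 0.15 and 0.01. Averaged over the 15 enzymes, the deviation from each gene's mean over 8 arrays was -0.12, -0.00, -0.11 and -0.07 in WT replicates 1 to 4 and 0.10, 0.07, 0.04 and 0.08 in NCOR_KO replicates 1 to 4. WT and NCOR_KO arrays did not overlap in this average. Over the 13 enzymes other than Ehhadh and Acaa1b it was -0.03, 0.04, -0.05 and 0.00 in WT and 0.01, 0.02, -0.02 and 0.03 in NCOR_KO arrays. The groups overlapped in that average. Ehhadh and Acaa1b were left out because they had passed on these same arrays, so the overlap follows in part from that choice. The peroxin average ran from -0.06 to 0.03 in WT and from -0.06 to 0.06 in NCOR_KO arrays. These averages carry no test, since the genes were chosen with results known.

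**Figure D4:**
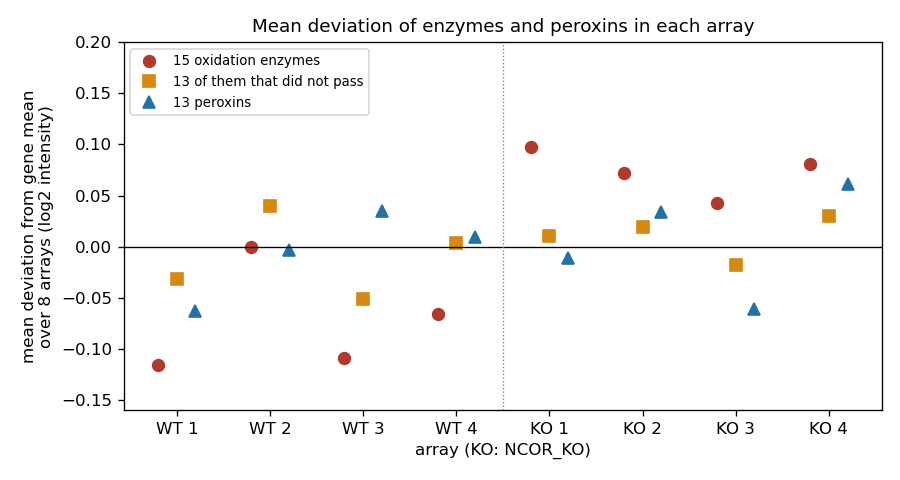
Mean deviation from each gene's mean over 8 arrays (y axis, log2 intensity) in each array (x axis) for the 15 oxidation enzymes, for the 13 of them that did not pass, and for the 13 peroxins. The enzyme average is above 0 in every NCOR_KO array and at or below 0 in every WT array, and the other averages overlap between groups.

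The 4 NCOR_KO values lay all on one side of the 4 WT values in 10 of the 39 genes (25.6%), where 10.4% of all genes and 15.4% of genes at or above the median level did so. Of these 7 were higher (4.9% of all genes) and 3 lower (5.49%). An unadjusted limma p under 0.05 was reached by 17 of the 39 (43.6%), 11 higher and 6 lower. This was so for 15.9% of all genes and 22.5% of genes at or above the median level. Both counts include the 3 risers. Of the 36 genes that did not pass, 7 separated the groups (19.4%), 4 higher and 3 lower. An unadjusted limma p under 0.05 was reached by 14 of the 36 (38.9%), 8 higher and 6 lower. The shares over all genes given above include genes that passed, so they are not the matching background for these 36. Of the 36 genes that did not pass, 33 had a 95% interval within 1.5-fold of no difference in either direction, and 18 within 1.2-fold. The exceptions to 1.5-fold were Hacl1, Abcd2 and Pex11a. Over all genes 21814 did not pass, of which 21050 had an interval within 1.5-fold and 10868 within 1.2-fold. Narrow intervals were thus general on these arrays and not particular to the listed genes. The median SD within groups was 0.10 over the 39 genes and 0.11 over all genes.

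NCOR_KO replicate 1 was the highest knockout array in 12 of the 39 genes, the 3 risers among them, and the lowest in 11, and without it the differences of the 3 risers were 1.13, 0.67 and 0.35. WT replicate 1 was the lowest control array in 16 of the 39 genes and the highest in 0, and NCOR_KO replicate 3 was the lowest knockout array in 19 and the highest in 2. Median array intensity was 42.6 in WT replicate 1 and 43.6 in NCOR_KO replicate 3. The lowest medians were 41.0 in WT replicate 2 and 41.8 in NCOR_KO replicate 4. The part of array brightness in this order was not tested.

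Further genes of the organelle were read from a wider list of 60 names, of which 49 were analysed here. Of these 4 rose, 1 fell and 44 did not pass (10.2% changed, beside 1.65% of all genes in the same fit), and the median difference was 0.02. The separate fit on genes at or above the median level called 4.97% of them, a share from another set of tests. Some of the 49, among them Acoxl and Acot5, lay below that level. Among 17 genes of acyl-CoA handling 2 rose, Acnat2, of the family that joins acyl-CoA to amino acids, and Crat, carnitine acetyltransferase. Acnat2 read 7.37, 7.48, 7.74 and 7.18 in WT and 9.19, 9.29, 9.17 and 9.67 in NCOR_KO arrays, a 3.70-fold difference (limma adjusted p = 1.15e-04). Its neighbour and close paralog Acnat1 separated the groups at 0.29 ± 0.08 (SE) without passing (adjusted p = 0.101). Crat rose by 0.87 ± 0.11 (SE; limma adjusted p = 0.0042), and averaging its rows instead of taking the brightest gave 0.58. The largest difference among those that did not pass was that of the thioesterase gene Acot3, 0.49 ± 0.40, with WT arrays spread from 6.64 to 8.68.

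Dhrs7b, a peroxisomal reductase that follows Agps in ether lipid synthesis, read 9.03, 9.06, 8.99 and 9.01 in WT and 9.49, 9.62, 9.53 and 9.62 in NCOR_KO arrays. It rose 1.45-fold (0.54 ± 0.06 SE, limma adjusted p = 0.0019) and passed in all 15 fits. Tmem135, a membrane protein of peroxisomes, rose 1.43-fold (0.51 ± 0.07, adjusted p = 0.0092), with WT values from 9.02 to 9.28 and NCOR_KO values from 9.54 to 9.75, and passed in all 15 fits. Dhrs7b belonged to a list of 6 and Tmem135 to a list of 8, in each of which 1 member rose and 0 fell. The largest differences without a call in these lists were those of Mvk, mevalonate kinase (-0.43 ± 0.14, adjusted p = 0.178), and Ide, an insulin-degrading protease (-0.49 ± 0.15, adjusted p = 0.143).

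Among 8 genes of other peroxisomal oxidases and an aminotransferase 1 fell. Hao1, which encodes the glycolate oxidase of hepatocytes, read 11.25, 10.85, 11.01 and 11.10 in WT and 10.30, 10.68, 10.69 and 10.498 in NCOR_KO arrays. It fell by 0.51 on the log2 scale (SE 0.11, limma adjusted p = 0.0427), a call lost in 8 of 15 alternative fits. Pipox, which oxidises pipecolic acid and sarcosine, was at -0.30 ± 0.06 and just missed the threshold (adjusted p = 0.0514). In this list 0 rose and 7 did not pass, and the median was -0.19 beside 0.01 over all genes. In the list of further oxidation enzymes and peroxins 0 of 8 passed, with Acoxl farthest from 0 at 0.18 ± 0.07 (adjusted p = 0.247), and in peroxide and glutathione defence 0 of 2 passed, with Gstk1 at 0.09 ± 0.06.

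The receptors and coactivators that act on this programme had 0 of 8 members past the threshold. Ppara read 10.62, 10.82, 10.71 and 10.74 in WT and 10.72, 10.67, 10.78 and 10.73 in NCOR_KO replicates 1 to 4. The groups coincided, at means of 10.72 each and a 95% interval of the difference from -0.14 to 0.14 (limma adjusted p = 0.9999). Rxra, its partner, read 10.91 to 11.02 in WT and 10.73 to 10.88 in NCOR_KO arrays, without overlap. The difference of -0.18 ± 0.06 (SE) did not pass (limma adjusted p = 0.183). Pparg had the largest difference in this group, 0.41 ± 0.19 (adjusted p = 0.333), with NCOR_KO values that varied widely (SD 0.47, n = 4).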

How the data were processed

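Values were deposited as linear intensity per probe set for 8 Affymetrix Mouse Gene 2.0 arrays, made with Partek and RMA per the submitters' processing notes, with no version given. The deposited intensity was taken to log2. No array column was left out. Of 41345 rows, 25335 carried a gene in the platform annotation, 1814 of them several genes, and 16010 carried none. Of 23521 single-gene rows 23328 matched RefSeq GRCm38.p6 symbols. The brightest row per gene gave 22180 genes (1082 had several rows).

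NCOR_KO and WT were compared with limma 3.58.1 (lmFit, eBayes) in R 4.3.3 on all genes, without a block, with Benjamini-Hochberg adjustment and a threshold of 0.05. Scripts were tested on simulated data. Gene pairs were described in Python 3.11.15, and the thiolase stretches were aligned with Biopython 1.88. A permutation test of the pairs was computed but is not reported, since the pairs were chosen after values had been seen. Figures used matplotlib 3.10.9. All 39 genes are named, as are, of the other peroxisomal and regulator lists, every gene past the threshold and the largest that missed it, and of the marker lists the risers. Genes, lists and tests were chosen with earlier results of these data known. The number of arrays limits precision. Protein sequences were not used here.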

Additional observations from a re-analysis of the deposited data

Results flagged for a closer look

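An array that stood far from the other 3 of its group was found in 3 of 78 groups of 4 arrays (39 genes in WT and in NCOR_KO), where chance gives about 1 in 20. Pecr read 11.003 in WT replicate 4, above 10.962 in the nearest array. Pex5 read 8.83 in WT replicate 1, below 8.89 in the nearest array. Mpv17l read 7.94 in WT replicate 1, below 8.10 in the nearest array.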

How the results depend on the processing

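Over 15 alternative fits of the 39 genes, 542 of 585 values kept their direction and their side of the threshold, 10 lost a call (Abcd3 in 9 and Acaa1b in 1), 4 gained one (Pxmp4), and 29 values of 11 genes that passed in neither fit changed sign. The count of all genes called was 551 among 11090 genes at or above the median level, 155 with the replicate block, 88 at a threshold of 0.01, 807 at 0.1, 202 without WT replicate 2 and NCOR_KO replicate 1 (chosen after seeing the data) and 120 to 297 without each array in turn. With arrays centred on their medians 147 genes were higher and 383 lower. Of the 39 genes, and of the 15 enzymes, 1 rose with the replicate block and 1 at 0.01. Of the other peroxisomal genes, 2 fell with centred arrays, with array weights and among genes at or above the median level, 3 with a variance trend and at 0.1, 0 with the replicate block and at 0.01, and 0 to 2 without each array in turn. Deviations of same-numbered arrays from their group means correlated at -0.09 to 0.02, and 0 of 8 arrays correlated best with their own number. Arrays with different numbers correlated at -0.18 to 0.22. With 4 arrays per group, these values cannot show whether shared replicate numbers stand for a pairing. The causes were not tested. None of the 70 recomputed differences between the genes of a pair changed sign. The pairs were chosen after values had been seen, so this adds no support to them.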

Other observations

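In the RefSeq annotation (GRCm38.p6), Dhrs7b and Aldh3a2 lie on chromosome 11, the chromosome of Ncor1, with 43 and 29 annotated genes between each and Ncor1. Dhrs7b rose by 0.54 on the log2 scale, and Aldh3a2 separated the groups at 0.24 without passing. Pex13, also one of the 39 genes and on chromosome 11, was close to level at 0.05 ± 0.07 (SE; limma adjusted p = 0.758). The part of chromosome position in these values was not tested.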
